A study of Mus musculus with 384 samples.

Results

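Gamma subunits of heterotrimeric G proteins were examined in single cells of 4 mouse pluripotent stem cell lines. The set holds 8 genes, Gng2, Gng3, Gng4, Gng5, Gng7, Gng10, Gng11 and Gng12, of the 31617 genes in the table, each taken as the row whose Ensembl identifier maps to its symbol. Gng3 was chosen by its value: its level in AF32 was about 30 times under that in AFX6, so that difference is a description and is not tested. Cells of the formative stem (FS) cell lines 5ar1 and 5ar2, which resemble the early post-implantation epiblast, were grown in AloXR (A3XR in the sample labels). This N2B27-based medium holds low activin, the tankyrase inhibitor XAV939, which blocks canonical Wnt signaling, and the retinoic acid receptor inverse agonist BMS493. The epiblast stem cell (EpiSC) lines, which represent primed pluripotency, were AFX6, grown in activin, Fgf2 and XAV939 (AFX), and AF32, grown in activin and Fgf2 alone (AF). The 4 lines carried no treatment beyond their media, and the strain of each line is not given in the sources used here. Each EpiSC medium is represented by 1 line, so line and medium cannot be told apart.

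Single cells were sorted into wells and read by Smart-seq2, a full-length method without molecular identifiers. Of 384 cells, 96 per line, the 326 with at least 3000000 counts were used: 90 of 5ar1, 90 of 5ar2, 66 of AFX6 and 80 of AF32. Kept cells had 3022666 to 6686007 counts, and the number of genes with a count had medians of 11371, 11567.5, 10328 and 10330.5 in that order of lines. A cell with no count of a gene may still hold up to 0.449 to 0.993 CPM of it (counts per 1000000 counts), the value of 3 counts at its depth. The level of a line is the CPM of its summed counts. Lines, not cells, are the replicates, so p-values measure the spread between these 4 lines. Pou5f1, the core pluripotency factor, was at 489.7 to 643.6 CPM in every line. T (Brachyury), a primitive streak marker, was at 0.144 to 0.382 CPM in 5ar1, 5ar2 and AFX6 and at 39.1 CPM in AF32. There 2 of 80 cells reached 5 CPM, and 1 cell held 99.1% of the T counts. Eomes, another such marker, was higher in the FS cell lines, with 61.3, 48.2, 6.62 and 5.84 CPM in 5ar1, 5ar2, AFX6 and AF32.

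A gamma subunit is a small lipid-modified protein that pairs with a beta subunit. The beta-gamma dimer is held at the membrane by the gamma subunit's prenyl group, binds a GDP-bound alpha subunit, and is released when a receptor activates that alpha subunit. Free dimers act on potassium channels, adenylyl cyclases, phospholipase C beta and phosphoinositide 3-kinase. Gng3 is best known from neurons, Gng7 from the striatum and Gng4 from neural tissue, whereas Gng2, Gng5, Gng10 and Gng12 are found in many tissues. Gng11 carries a farnesyl group, whereas most of the others carry a geranylgeranyl group.

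Promoters of 3 members are shown because these genes were found in nearly all cells of most lines and differ most in how their levels compared between lines: Gng3 varied most, Gng5 varied least, and Gng2 lay between. Each sequence is the RefSeq window of 250 bases before to 50 bases after the annotated start, on GRCm38.p6, with CG dinucleotides in capitals. The Gng3 window is chr19:8839197-8839496 on the minus strand, the Gng5 window chr3:146499586-146499885 on the plus strand and the Gng2 window chr14:19976644-19976943 on the minus strand.
Gng3: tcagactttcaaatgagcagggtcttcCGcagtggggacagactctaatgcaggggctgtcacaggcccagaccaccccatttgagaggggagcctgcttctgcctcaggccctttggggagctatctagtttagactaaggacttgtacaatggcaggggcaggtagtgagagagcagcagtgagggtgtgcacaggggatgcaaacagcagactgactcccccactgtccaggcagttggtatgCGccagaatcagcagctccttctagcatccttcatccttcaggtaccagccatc
Gng5: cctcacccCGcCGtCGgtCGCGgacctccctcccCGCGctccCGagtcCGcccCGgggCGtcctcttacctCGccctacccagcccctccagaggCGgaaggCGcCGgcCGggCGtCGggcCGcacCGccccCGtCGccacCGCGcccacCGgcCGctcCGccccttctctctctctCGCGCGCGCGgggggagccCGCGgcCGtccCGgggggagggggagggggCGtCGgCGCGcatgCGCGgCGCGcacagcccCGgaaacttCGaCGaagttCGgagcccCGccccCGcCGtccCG
Gng2: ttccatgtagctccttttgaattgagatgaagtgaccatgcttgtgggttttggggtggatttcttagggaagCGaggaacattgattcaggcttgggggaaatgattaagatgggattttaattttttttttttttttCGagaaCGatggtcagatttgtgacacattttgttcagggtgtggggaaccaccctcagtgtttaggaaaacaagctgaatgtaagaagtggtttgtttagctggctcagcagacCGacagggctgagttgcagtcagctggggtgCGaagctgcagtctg
The Gng3 window held 2 CG dinucleotides, and 23.3% of the 32851 promoters in the reference held as few or fewer. The Gng5 window held 52, a number reached by 0.575% of promoters, and that of Gng2 held 5, close to the median of 7. Promoters were matched for 7 of the 8 members. The other windows held 6 and 20 CG dinucleotides (Gng7), 17 and 29 (Gng4), 27 (Gng10) and 34 and 35 (Gng12). The letters TATAAA, on either strand, were in no window of these members and in 13.6% of all promoters. CCAAT, on either strand, was found in 1 window of Gng7, 1 of Gng4 and 37.4% of all promoters.

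Gng3 (ENSMUSG00000071658) lies on chromosome 19, 8836933 to 8839194, minus strand, in GRCm38, with 1643 exonic bases in 3 blocks by GENCODE M21. Its level was 119.8 CPM in 5ar1, 108.4 in 5ar2, 232.7 in line AFX6 and 7.75 in AF32. AFX6 was highest and AF32 lowest, with both FS cell lines between them. Gng3 in AFX6 was 30.0-fold its level in AF32 (exact 95% interval 28.9 to 31.2), a value that was the basis of the choice. Intervals of folds and of shares reflect counting alone and leave out how lines vary. Those of folds pool the counts of all cells of a line, so they also leave out how cells vary. The level of AF32 was also 15.4-fold under 5ar1 and 14.0-fold under 5ar2, whereas AFX6 was 1.94-fold over 5ar1 and 2.15-fold over 5ar2. The FS cell lines differed from each other by 1.11-fold, which is itself the only measure of spread within a medium, so the order of these neighbours is not resolved. Of 11260 genes with at least 5 CPM in AFX6 or AF32, 60 (0.533%) were at least as far above in AFX6.

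Single cells gave the same order. In 5ar1 the lowest, median and highest cell had 0.340, 105.1 and 383.8 CPM of Gng3. In 5ar2 these were 0.538, 92.9 and 436.6 CPM, and in AFX6 20.7, 199.7 and 714.2 CPM. In AF32 they were 0, 0.607 and 118.2 CPM. Cells of AF32 and AFX6 overlapped in part: 9 of 80 AF32 cells reached the lowest AFX6 cell, and 13 of 66 AFX6 cells lay at or under the highest AF32 cell.

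**Figure D1:**
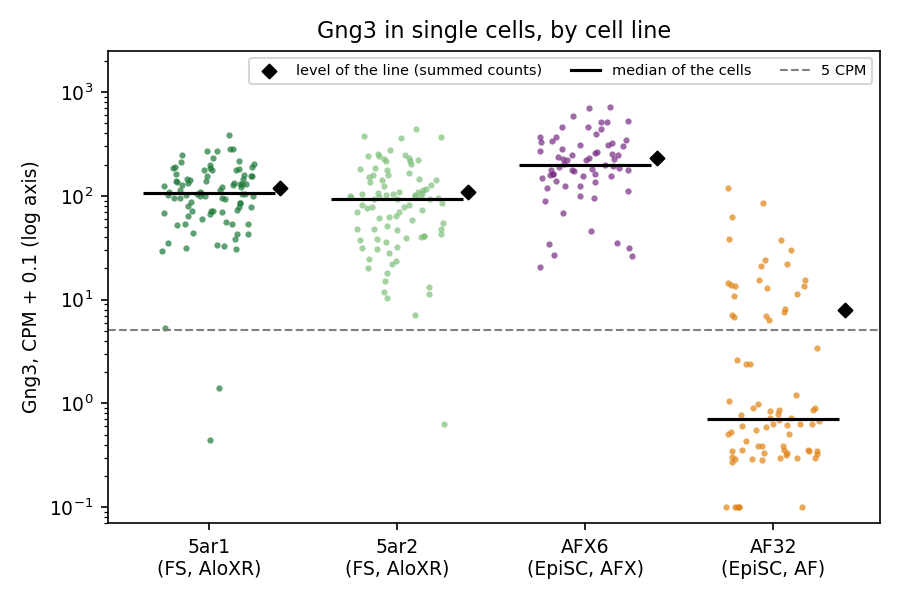
Gng3 in the kept cells of the 4 lines, as CPM plus 0.1 on a log axis, with 1 point per cell, a bar at the median of the cells, a diamond at the level of the line and a dashed line at 5 CPM. Nearly all cells of 5ar1, 5ar2 and AFX6 lie above the dashed line, whereas 24 of 80 AF32 cells do.

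Gng3 reached 5 CPM in 88 of 90 cells of 5ar1 (97.8%, exact 95% Clopper-Pearson interval 92.2 to 99.7%) and 89 of 90 cells of 5ar2 (98.9%, 94.0 to 100.0%). It did so in 66 of 66 cells of AFX6 (100%, 94.6 to 100%) but in 24 of 80 cells of AF32 (30%, 20.3 to 41.3%). The 24 AF32 cells at 5 CPM or more had 6.20 to 118.2 CPM, with a median of 14.1, and held 95.1% of the Gng3 counts of the line. The other 56 had 0 to 3.29 CPM, from 0 to 16 counts per cell, with a median of 1.5 counts. The 5 highest AF32 cells held 54.0% of the summed CPM, against 14.0% in 5ar1, 18.3% in 5ar2 and 19.3% in AFX6. The coefficient of variation across cells was 2.36 in AF32 and 0.595 to 0.821 in the other lines.

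Whether reads carried over from other libraries add to the lowest AF32 values was not tested. As a measure chosen after values were seen, 4 Y-linked genes had in AFX6 0.278% of the mean of the other lines. The same share of the mean Gng3 level of 5ar1, 5ar2 and AFX6 is 0.427 CPM. At or under this value were 30 of the 80 AF32 cells, and the level of the AF32 line was 18.1 times it. The AF32 cells on either side of 5 CPM were alike in depth, with medians of 4535367 counts under it and 4232227 counts at or above it. Their medians of detected genes were 10270 and 10476.5, and their medians of Gng5 were 220.7 and 203.8 CPM.

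Exons of Gng3 overlap those of Bscl2, which encodes the lipid droplet protein seipin and lies on the opposite strand (chromosome 19, 8837467 to 8848683). Of the 1643 exonic bases of Gng3, 398 (24.2%) are shared, and the promoter window of Gng3 printed above lies inside Bscl2. Whether counting used strand, and how it treated reads of the shared bases, is not given in the sources used here. Such reads cannot be assigned to one gene. Bscl2 was at 103.2 CPM in 5ar1, 103.9 in 5ar2, 161.1 in line AFX6 and 37.0 in AF32, in the same order as Gng3 except between the FS cell lines. Its AFX6 level was 4.35-fold that of AF32. In AF32 the cells at 5 CPM or more of Gng3 had a median of 38.3 CPM of Bscl2, and the cells under it 0.560 CPM. Both genes reached 5 CPM in 15 AF32 cells, Gng3 alone in 9, Bscl2 alone in 21 and neither in 35. In the other 3 lines both reached it in 82 of 90, 86 of 90 and 63 of 66 cells, and no cell was under it for both. Within a line, Spearman rho between both genes across cells was 0.33 in 5ar1, 0.57 in 5ar2, 0.18 in line AFX6 and 0.27 in AF32, where the points share a library and the overlapping bases.

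**Figure D2:**
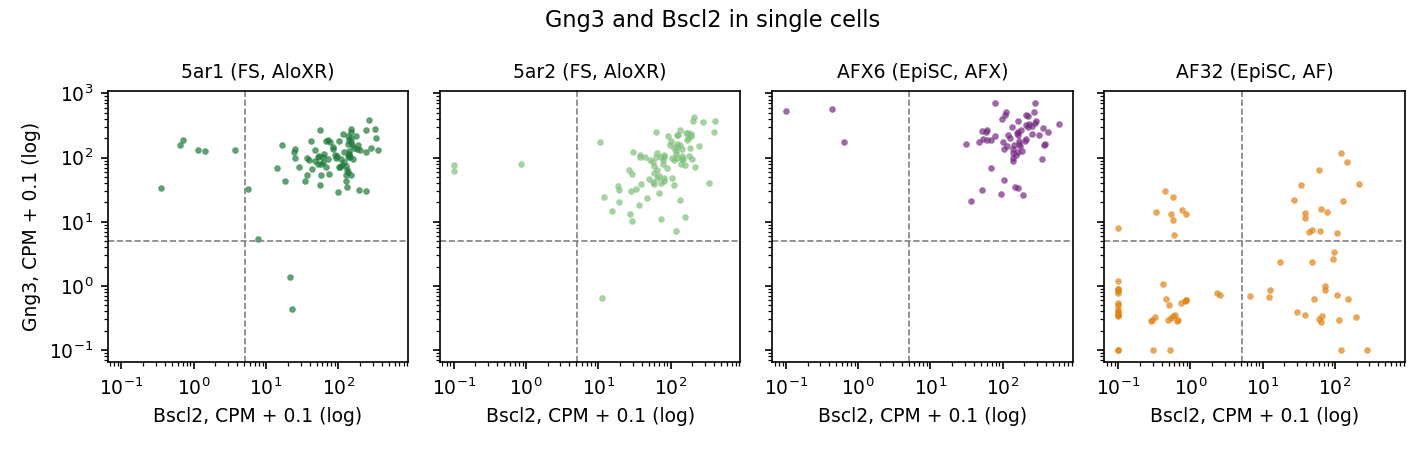
Gng3 against Bscl2 in the kept cells of each line, both as CPM plus 0.1 on log axes, 1 point per cell, with dashed lines at 5 CPM. The AF32 cells fill all 4 fields, with 35 of 80 cells under 5 CPM in both genes.

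Of the other protein-coding neighbours, Ttc9c, Hnrnpul2 and Ubxn1 did not follow Gng3. On the side of lower coordinates, Ttc9c was at 83.3, 96.1, 106.2 and 85.9 CPM in 5ar1, 5ar2, AFX6 and AF32. Hnrnpul2 was at 12.5 CPM in AFX6 and 13.3 in AF32. AC129217.1, which starts on that side but spans Gng3, had 0 counts in all kept cells and cannot be compared. On the other side, beyond Bscl2, Lrrn4cl was under 1.2 CPM throughout, too low to compare. Ubxn1 was at 237.0, 305.1, 275.9 and 347.6 CPM, highest in AF32.

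Chromosome 19 differed between cells in its mean expression relative to the other autosomes, computed without Gng3. The ratio exceeded 1.2 in 52 of 90 cells of 5ar2, 18 of 80 of AF32, 2 of 66 of AFX6 and 0 of 90 of 5ar1. In 5ar2 the cells above it had a median of 107.2 CPM of Gng3 and the others 46.6. In AF32 the medians were 0.568 and 0.608 CPM, and Gng3 reached 5 CPM in 5 of 18 and 19 of 62 cells. With these cells left out, Gng3 was 27.0-fold higher in AFX6 than in AF32, and 1.61-fold higher in 5ar1 than in 5ar2.

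Gng5 (ENSMUSG00000068523, chromosome 3, 146499807 to 146505572) was the most even member. It was at 242.2 CPM in 5ar1, 286.7 in 5ar2, 207.6 in line AFX6 and 230.2 in AF32, and at 5 CPM or more in all 326 kept cells. AFX6 and AF32 differed by 1.11-fold and the FS cell lines by 1.18-fold. The lowest cell of any line had 54.2 CPM and the highest 803.3. Gng2 (ENSMUSG00000043004, chromosome 14, 19872559 to 19977627) was at 59.2, 65.0, 110.3 and 78.2 CPM in 5ar1, 5ar2, AFX6 and AF32. It reached 5 CPM in 95.5% to 100% of the cells of each line. Both EpiSC lines lay above both FS cell lines. Gng12 (ENSMUSG00000036402, chromosome 6, 66896397 to 67021350) was at 27.9, 23.6, 41.7 and 48.9 CPM in the same order, again with the EpiSC lines above, and reached 5 CPM in 67.8% to 76.3% of cells.

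**Figure D3:**
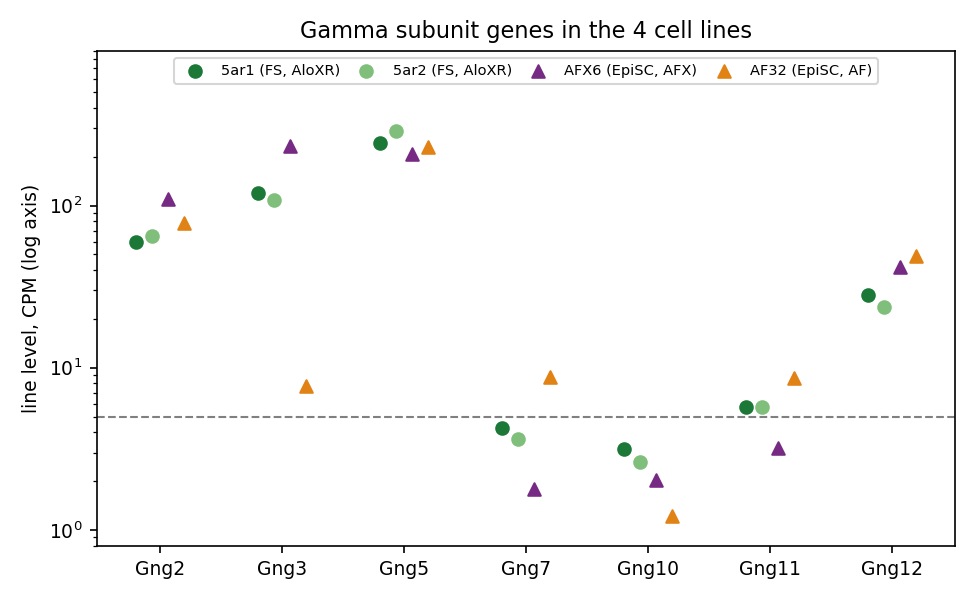
Level of 7 members in the 4 lines, as CPM of summed counts on a log axis, with circles for FS cell lines, triangles for EpiSC lines and a dashed line at 5 CPM. AF32 lies far below the other lines for Gng3 and above them for Gng7 and Gng11.

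Gng7 and Gng11 were the members at least 2-fold higher in AF32 than in AFX6. Gng7 (ENSMUSG00000048240, chromosome 10, 80948624 to 81014945) was at 4.24 CPM in 5ar1, 3.61 in 5ar2, 1.79 in line AFX6 and 8.72 in AF32. AF32 was 4.86-fold over AFX6 (4.45 to 5.32), and few cells carried this level: 12 of 80 AF32 cells and 3 of 66 AFX6 cells reached 5 CPM. In AFX6 a single cell held 81.4% of the Gng7 counts, and the 5 highest cells held 98.9% of the summed CPM. Without the highest cell AFX6 was at 0.338 CPM, and the fold of AF32 over AFX6 went to 25.8, so the size of this fold rests on 1 cell. Gng11 (ENSMUSG00000032766, chromosome 6, 4003904 to 4008445) was at 5.70, 5.73, 3.20 and 8.67 CPM in the order used above. AF32 was 2.71-fold over AFX6 (2.52 to 2.90), and 24 of 80 AF32 cells and 9 of 66 AFX6 cells reached 5 CPM. The highest AFX6 cell held 41.9% of the counts there, and without it AFX6 was at 1.89 CPM and the fold was 4.58. The exact intervals of these Gng11 shares were 20.3 to 41.3% in AF32 and 6.43 to 24.3% in AFX6. Those of Gng7 were 8.00 to 24.7% and 0.947 to 12.7%. Their overlap decides nothing between the lines, because they cover counting alone and cells are not replicates.

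Gng10 and Gng4 were under 5 CPM in every line. Gng10 (ENSMUSG00000038607, chromosome 4, 59035088 to 59041903) was at 3.18, 2.61, 2.02 and 1.23 CPM, and a count of it was found in 83.3% and 85.6% of cells of the FS cell lines and in 50% and 43.8% of cells of AFX6 and AF32. Of its 1314 exonic bases, 946 (72.0%) are shared with Gm20503 on the same strand, so its level is uncertain. Gng4 (ENSMUSG00000021303, chromosome 13, 13784059 to 13827896) had 1 count in 1 AFX6 cell and 0 counts in the other lines, which allows a level of up to 0.00843 CPM in AF32. Of the other members, Gng2 shares 897 exonic bases with Gm48283, which had a count in 1 of the 326 cells, and Gng12 shares 125 with 4930597O21Rik, which had a count in 4.

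**Figure D4:**
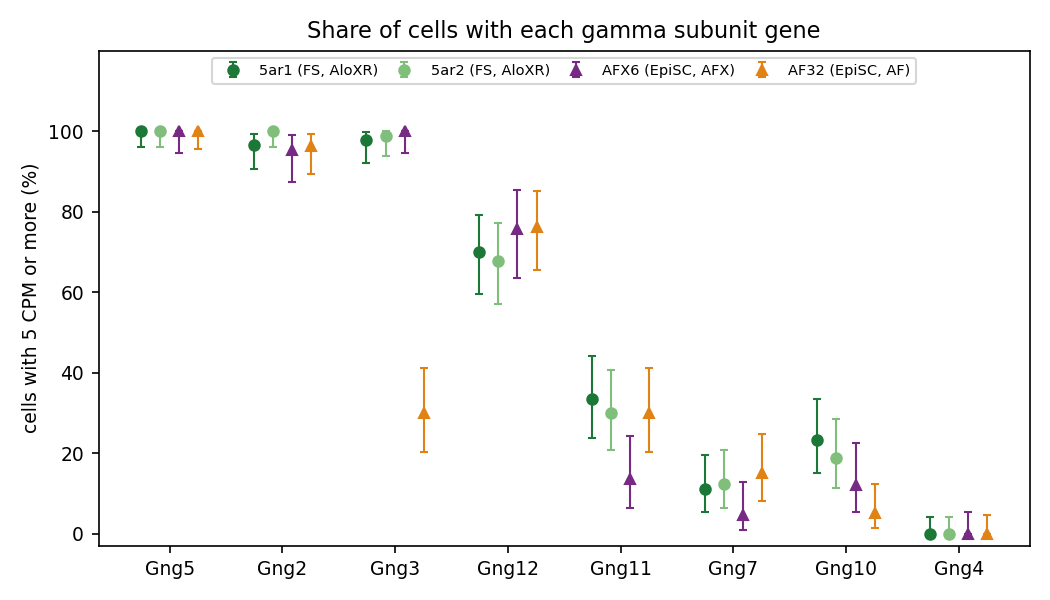
Share of kept cells with at least 5 CPM of each member, by line, in percent, with exact 95% Clopper-Pearson intervals that cover counting error only. Gng3 is at 97.8% or more in 3 lines and at 30% in AF32.

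Compared per exon length, the make-up of the gamma subunit transcripts differed between the lines, mainly through Gng3. Since Gng3 was chosen by its AF32 and AFX6 values, its share is a description, and the shares of the other members move with it. The level per kb of exon, summed over members, was 189.6 CPM per kb in 5ar1, 198.7 in 5ar2, 256.2 in line AFX6 and 128.8 in AF32. Without Gng3 the sums were 116.7, 132.7, 114.5 and 124.1 CPM per kb, which lie close together. Gng3 made up 38.4%, 33.2%, 55.3% and 3.66% of the sum, and Gng5 46.2%, 52.2%, 29.3% and 64.6%. Per length, Gng3 was the most abundant member in AFX6, with 141.6 CPM per kb against 75.1 for Gng5. Over all exon bases, which the shares above use, Gng5 led in the other lines. In AF32 Gng5 had 83.2 CPM per kb against 17.8 for Gng2, 10.3 for Gng12 and 4.72 for Gng3. Per kb of exon bases not shared with other genes, Gng3 was at 96.2 CPM in 5ar1, above 87.6 for Gng5. In 5ar2 and AF32 Gng5 led by that length too, so the order is unsettled in 5ar1. The sums by unshared bases were 222.8, 228.8, 312.1 and 137.6 CPM per kb. Gng2, Gng3 and Gng5 were together at 5 CPM or more in 94.4%, 98.9% and 95.5% of the cells of 5ar1, 5ar2 and AFX6, and in 30% of those of AF32. In AF32, 53 of 80 cells had Gng2 and Gng5 without Gng3.

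**Figure D5:**
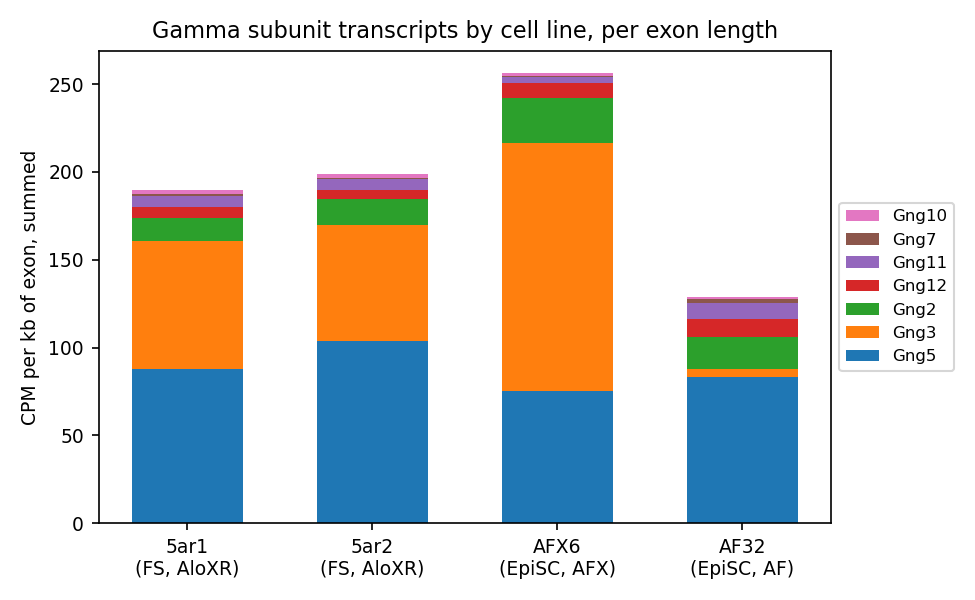
Level of 7 members per kb of exon, bases shared with other genes included, stacked, in the 4 lines, in CPM per kb on a linear axis from 0. The Gng3 layer is 141.6 CPM per kb in AFX6 and 4.72 in AF32, and the other layers together span 114.5 to 132.7.

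Against all genes, a fold of at least 2 between the EpiSC lines was met by 1 of the 6 members with 5 CPM in either line in the direction of AFX6 (Gng3) and by 2 in the direction of AF32 (Gng7 and Gng11). Of all 11260 genes at that level, 8.4% were at least 2-fold higher in AFX6 and 13.3% at least 2-fold higher in AF32. Since the choice used this contrast, nothing is read from the counts. The median log2 fold of AFX6 over AF32 was -0.19 over the 6 members and -0.11 over all these genes. Between 5ar1 and 5ar2, 0 of 5 members passed a fold of 2, where 3.71% of 10744 genes did so in the direction of 5ar1 and 2.29% in that of 5ar2.

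FS cells and EpiSCs were compared over the 4 line sums with edgeR's quasi-likelihood test. With a threshold of 0.05 on the adjusted p and of 1.4 on the absolute log2 fold change, 0 of 22606 genes were called (0%), and 3636 (16.1%) had an unadjusted p under 0.05. DESeq2 called 1454 genes and limma 0. Gng4 was not tested, and of the 7 members tested 0 were called by any of the tools. Gng12 had a log2 fold change, EpiSCs minus FS cells, of 0.82 (SE 0.22, adjusted p = 0.208), and it was the 1 member with an unadjusted p under 0.05. DESeq2 gave Gng12 an adjusted p of 0.022, with a log2 fold change of 0.84 that is short of 1.4. Gng2 had 0.61 (SE 0.26, adjusted p = 0.363) and Gng5 -0.27 (SE 0.18, adjusted p = 0.576). Gng10 had -0.82 (SE 0.62, adjusted p = 0.638), Gng7 0.41 (SE 0.86, adjusted p = 0.900) and Gng11 0.05 (SE 0.61, adjusted p = 0.988). For Gng3, whose EpiSC lines were the basis of the choice, the log2 difference was 0.11 with an SE of 1.45. Of the 6 members with 5 CPM in any line, the lines did not overlap between the states for Gng2 and Gng12, with the EpiSC lines above (27.6% of 11728 genes with 5 CPM in any line), and for Gng5, with the EpiSC lines below (26.1%). Gng10, under 5 CPM throughout, also had the EpiSC lines below. The FS cell lines lay between the EpiSC lines for Gng3, Gng7 and Gng11 (18.4%).

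In 7 lists of genes of the same pathway, folds between the EpiSC lines were compared at 5 CPM or more. The largest were 7.66 (Rgs11, higher in AFX6) and 7.65 (Prex2, higher in AF32). Gng3, at 30.0, was chosen by this fold, so nothing is read from its place above them. Among beta subunits, Gnb1 was at 411.1, 348.1, 269.1 and 304.2 CPM and Gnb2 at 188.5, 141.4, 187.8 and 182.7 CPM in 5ar1, 5ar2, AFX6 and AF32. Of 4 beta subunit genes with 5 CPM in AFX6 or AF32, 2 were at least 2-fold higher in AF32: Gnb5, the divergent beta subunit that pairs with some RGS proteins, with 8.93 against 32.6 CPM, and Gnb4 with 17.3 against 60.6 CPM. Among 10 alpha subunit genes, 1 was at least 2-fold higher in AF32, Gnao1 with 3.39 CPM in AFX6 and 12.6 in AF32. Gnaz had 6.28 and 3.84 CPM. Genes of chaperones and exchange factors (7) and of prenylation and processing (9) stayed within 2-fold. The 2 largest differences among chaperones and exchange factors were those of Pdcl3, with 127.1 CPM in AFX6 and 76.3 in AF32, and Gpsm1, with 29.1 and 36.1 CPM. In the prenylation list they were those of Fnta, the shared alpha subunit of farnesyl and geranylgeranyl transferase, with 223.9 and 147.1 CPM, and Fntb with 48.7 and 33.6 CPM.

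Among 8 genes of RGS proteins, which speed GTP hydrolysis by alpha subunits, 1 was at least 2-fold higher in AFX6. This was Rgs11, which contains a gamma-like domain that binds Gnb5, with 37.0 CPM in AFX6, 4.83 in AF32, 18.7 in 5ar1 and 13.9 in 5ar2. In AFX6, 1 cell held 23.6% of the Rgs11 counts. The Rgs11 fold was 5.91 without that cell and 10.2 without the highest AF32 cell. Rgs17 had 14.4 and 9.92 CPM in AFX6 and AF32. Among 9 genes of beta-gamma effectors, 2 were at least 2-fold higher in AF32: Prex2 with 4.24 in AFX6 and 32.4 CPM in AF32 (12.4-fold without the highest AFX6 cell), and Prex1 with 7.50 and 15.3 CPM. Both encode Rac exchange factors. Of 3 gamma subunit genes outside the set, Gngt2 reached 5 CPM, with 4.34 CPM in AFX6 and 11.4 in AF32. The median log2 folds of AFX6 over AF32 were -0.99 for beta subunits, 0.13 for alpha subunits, 0.07 for chaperones, 0.13 for prenylation, 0.32 for RGS proteins and -0.14 for effectors, beside -0.11 over all genes. Between FS cells and EpiSCs, 0 of 74 genes of these 7 lists were called by edgeR, and 12 (16.2%) had an unadjusted p under 0.05.

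Because Gng3 is known from neurons, markers of other cell types were set beside it. Of 11 neuronal markers 6 reached 5 CPM in AFX6 or AF32, 1 at least 2-fold higher in AFX6 and 2 in AF32, and their summed level over all 11 was 1074 CPM in 5ar1, 578.4 in 5ar2, 590.1 in line AFX6 and 1036 in AF32. Stmn2 made up most of the AF32 sum, with 191.0 CPM in AFX6 and 769.8 in AF32. Tubb3, a neuronal tubulin, had 12.2 and 68.7 CPM, of which 1 AF32 cell held 39.9%, and without that cell the fold was 3.43. Both FS cell lines were above AF32 in Tubb3, with 335.2 CPM in 5ar1 and 129.9 in 5ar2. A single 5ar1 cell held 22.6% of the Tubb3 counts of 5ar1. In Stmn2 they were under AF32, with 482.9 and 306.6 CPM. Between the EpiSC lines the neurofilament genes went against Tubb3, as Gng3 did. Nefl had 290.4 CPM in AFX6 and 108.9 in AF32, and Nefm 62.7 and 35.6 CPM. Rbfox3 and Syt1, found in mature neurons, were at 0.271 to 2.34 and 1.30 to 3.24 CPM in the 4 lines. Of 5 neural progenitor markers 2 reached 5 CPM. Sox1 had 0.259 CPM in AFX6 and 8.36 in AF32 and Nes 101.2 and 97.4 CPM. Hes5 was at 0 in AFX6 and Zic1 at 0 in AF32. Pax6, under 5 CPM in each line, went against Sox1, with 4.13 CPM in AFX6 and 0.436 in AF32. Of 7 pluripotency markers, all at 5 CPM or more, 1 was at least 2-fold higher in AFX6 and 2 in AF32. Utf1 had 1057 CPM in AFX6 and 302.3 in AF32, and Sox2 4.88 and 12.7 CPM. Of 7 primitive streak and endoderm markers 3 reached 5 CPM in either EpiSC line. Of these T and Foxa2 were at least 2-fold higher in AF32, in few cells. A single AF32 cell held 99.1% of the T counts of the line, which without it was at 0.357 CPM, beside 0.382 in AFX6. Foxa2 had 0.00601 CPM in AFX6 and 7.91 in AF32, where 13 of 80 cells reached 5 CPM. Eomes had 6.62 CPM in AFX6 and 5.84 in AF32, beside 61.3 in 5ar1 and 48.2 in 5ar2. The part of these differences in the Gng3 values was not tested.

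Across the lines, few genes were as far under the other lines in AF32 as Gng3. The measure was the ratio of AF32 to the lowest of the other 3 lines, over the 5915 genes that reached 20 CPM in each of those lines. It scores a low AF32 level alone and not the order of the other lines. Gng3 had a ratio of 0.0715 and ranked 5 of all, behind Tspan6 (0.00558), Cthrc1 (0.00648), Gusb (0.0119) and Spp1 (0.0138). These 5 genes were those at 0.1 or less, 0.0845% of the genes compared, and the median ratio was 1.24. Tspan6 was at 157.3, 155.5, 38.8 and 0.216 CPM, and Cthrc1, a secreted protein of the extracellular matrix, at 42.1, 21.7, 50.2 and 0.141 CPM. Like Gng3, Cthrc1 was highest in AFX6. In Tspan6, Gusb and Spp1, AFX6 was instead the lowest of the other 3 lines. Since Gng3 was chosen on AF32 and AFX6, its rank is a description.

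Across cells, the genes most like Gng3 were taken by the mean Spearman rho over 5ar1 (90 cells), 5ar2 (90) and AFX6 (66), for the 5914 other genes that reached 20 CPM in each. They were Cfl1, which severs actin filaments (mean rho 0.39), Bscl2 (0.36), Gpx1, a glutathione peroxidase (0.30), Rras, a small GTPase (0.29), and Tmsb10, an actin-binding peptide (0.29). The 99th percentile of all genes was 0.18. Cfl1 and Bscl2 lie on chromosome 19, as Gng3 does. Cells of a line are not independent samples, and these values are descriptions. With the other members, rho of Gng3 across cells ranged from -0.23 (Gng7 in AFX6) to 0.23 (Gng5 in AFX6) over all lines.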

How the data were processed

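Single cells of 4 mouse lines (5ar1, 5ar2, AFX6, AF32) were profiled by Smart-seq2 with 101-base paired reads. According to the study's methods and the submitters' processing notes, the authors aligned reads to GRCm38.p6 with STAR 2.7.3a and counted uniquely mapped reads per gene with featureCounts 2.0.0, and the deposited raw counts were used here. The authors also deposited normalized values, a depth-corrected score from sctransform that holds 7 of the 8 members, which were used as an alternative only. All 384 columns matched a sample, and 0 pairs of cells held the same counts. Cells are named by wells and carry no shared barcodes.

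Cells with at least 3000000 counts were kept, counts were summed per line and expressed as CPM, and genes were named through GENCODE M21. Shares carry exact Clopper-Pearson intervals (95%) and folds of summed counts exact conditional intervals, from scipy 1.17.1 in Python 3.11.15. FS cells (2 lines) and EpiSCs (2 lines) were compared by the quasi-likelihood test of edgeR 4.0.16 in R 4.3.3, after filterByExpr and TMM scaling. A gene was called with a Benjamini-Hochberg adjusted p under 0.05 if its absolute log2 fold change passed 1.4. The SE is the absolute log2 fold change divided by the square root of F. AF32 and AFX6 were compared by folds only. Alternatives were DESeq2 1.42.0, limma 3.58.1 on log2(mean CPM + 1), DESeq2 size factors, other limits on counts or CPM, cells thinned to 1000000 counts, and leaving out 1 line at a time. For the chromosome 19 ratio, each autosomal protein-coding gene with a mean of at least 20 CPM was divided by its mean over cells, with values above 3 set to 3, and the chromosome's mean was divided by the median autosome.

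Named genes are the members and 2 genes per list with the largest log2 fold between AFX6 and AF32. Added are 3 protein-coding neighbours on each side of Gng3, ordered by start coordinate. So are 5 genes each by likeness to Gng3 across cells and by the AF32 ratio. Members, the 11 other lists and rules were chosen with earlier results of these data known. Gnb1, Gnb2, Pou5f1, Nefl, Nefm, Rbfox3, Syt1, Hes5, Zic1, Pax6, Eomes, the Y-linked genes and genes that share exons with members were named after their values were seen.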

Additional observations from a re-analysis of the deposited data

How the results depend on the processing

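The Gng3 fold of AFX6 over AF32 ranged from 24.4 to 36.6 over the 12 alternatives. It was 24.4 with a minimum of 2000000 counts per cell, 25.1 with 4000000, 25.2 with none, 28.4 without the 14 cells with few detected genes and 27.0 without cells whose chromosome 19 ratio exceeded 1.2. Leaving out the cell with the highest Gng3 gave 36.6 for AF32, 29.3 for AFX6 and 35.8 for each line at once. The alternatives on chromosome 19 and on the highest cells, those of Gng7 and Gng11 included, were chosen after seeing the data. The share of AF32 cells with Gng3 at 5 CPM or more ranged from 22.5% to 36.3%, and that of the other lines from 95.8% to 100%. Between FS cells and EpiSCs, edgeR called 0 genes under each of its alternatives and limma called 0, whereas DESeq2 called 1454. The log2 difference of Gng3 between EpiSCs and FS cells was -1.32 with limma. Leaving out 1 line at a time gave -3.89 (without AFX6) to 1.06 (without AF32) for Gng3, -1.10 (without AF32) to 1.14 (without AFX6) for Gng7 and -0.80 (without AF32) to 0.59 (without AFX6) for Gng11, which was -0.093 with limma. Where a line was left out, the lone line was assumed to vary like the others. The other 72 of 77 alternatives of the members' log2 differences kept their direction. Without cells with a high chromosome 19 ratio, Gng7 in 5ar1 over 5ar2 went from 1.17 to 0.62. The cause was not tested. No paired analysis was possible because the numbers in the sample labels only number the cells of each line. At the depth of the shallowest kept cells, Gng3 under 0.993 CPM may go undetected.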

Other observations

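The 58 cells with fewer than 3000000 counts, which enter only the alternatives with a lower minimum or none, held Gng3 at 5 CPM or more in 6 of 6 cells (5ar1), 5 of 6 (5ar2), 26 of 30 (AFX6) and 6 of 16 (AF32). Their medians were 66.4, 17.1, 257.5 and 1.53 CPM, at median depths of 512733, 1853732, 1628170 and 1953882 counts. Gng5 had medians of 201.7, 245.6, 465.5 and 179.8 CPM in the same cells. The shallowest of these cells had 73059 counts in 5ar1, 18471 in AFX6 and 23743 in AF32, where a single count passes 5 CPM. There the limit means any count, so the shares above are not comparable with those of the kept cells.

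Rows of related sequences were under 5 CPM in each line, apart from Gngt2. Gngt2, outside the set and its sums, was at 4.69, 9.79, 4.34 and 11.4 CPM in 5ar1, 5ar2, AFX6 and AF32. Gng5-ps, a pseudogene of Gng5, was at 2.16 to 2.93 CPM and Gng2-ps1 at 0.0169 to 0.0345 CPM. Gng8 was at 0.977, 0.630, 2.57 and 3.82 CPM in 5ar1, 5ar2, AFX6 and AF32, and Gng13 at 0.114 to 0.386 CPM.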
